A study of Mus musculus with 49 samples.

Results

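From mouse hippocampus, 7 RNA libraries named KOWT, littermate controls of endophilin A1A2 double knockouts, were set against 10 WT-DKO wild-type libraries, together 17 of the 49 libraries of the series. The columns of the deposited count table named for these groups chose the members. Both groups carry an age label of postnatal day 13 to 21. The genotype of KOWT is not spelled out, and neither strain, sex, litter nor colony is labelled. The 7 double-knockout libraries (DKO) of the same age entered the fit, and 8 KOWTKO libraries (littermates of triple knockouts) and 8 WT-TKO wild-type libraries, labelled postnatal day 0, give a second comparison with no library in common. Another label calls every sample newborn; ages here follow the age label. Nothing says that libraries of a group came from separate animals, and the p-values therefore reflect spread among libraries, which may be technical. Littermates and separate wild types may also differ in colony and strain background, so loss of the endophilin A1 transcript and such differences cannot be told apart in this comparison.

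Endophilin A proteins are crescent-shaped BAR-domain proteins that sense and bend membranes. At the presynaptic terminal they bring dynamin and synaptojanin to the necks of clathrin-coated pits, and synaptojanin then helps strip the coat from new vesicles. Sh3gl2 encodes endophilin A1, the brain-enriched form, Sh3gl1 the widely expressed A2 and Sh3gl3 A3, and Sh3glb1 and Sh3glb2 encode the related B proteins. The hippocampus comprises the pyramidal cell fields CA1 to CA3 and the granule cells of the dentate gyrus.

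Library depth was 13.5 M to 36.8 M reads on genes in KOWT and 15.3 M to 57 M in WT-DKO, where M stands for mega. All 7 KOWT libraries held hippocampal transcripts, with a mean of 9 CA1 markers of 6 to 6.35 log2 CPM (read counts scaled to library size) in KOWT and 5.89 to 6.24 in WT-DKO, and of 14 dentate markers of 5.42 to 5.69 in KOWT and 4.91 to 5.62 in WT-DKO. By Xist, a transcript of the inactive X, 2 of the 7 KOWT and 4 of the 10 WT-DKO libraries were female. Transthyretin (Ttr), the leading secreted product of the choroid plexus, exceeded 100 CPM in KOWT replicates 3, 5 and 7 and in WT-DKO replicates 1 and 9. Without these 5 libraries, 586 genes were called in place of the 711 given below.

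Sh3gl2 (ENSMUSG00000028488, mm10 chromosome 4, 85205126 to 85639195) checks the labels first. Its level was 37.2, 38.2, 39.4, 39.2, 37.5, 40.0 and 37.5 CPM in KOWT replicates 1 to 7, against 372 to 446 CPM with a median of 426 in WT-DKO. The KOWT libraries lay close together and far below each WT-DKO library, and no library was at 0. The log2 fold change of -3.44 ± 0.05 (SE), 10.9-fold lower in KOWT, describes the pattern by which the group is known and is not offered as a finding.

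The other endophilins were not called, in a test whose threshold was an adjusted p under 0.05 (edgeR quasi-likelihood test over all genes, Benjamini-Hochberg). Sh3gl1 ranged from 52.0 to 64.1 CPM in KOWT (median 56.5) and from 52.8 to 60.5 CPM in WT-DKO (median 56.6), and the ranges overlapped, with KOWT reaching past WT-DKO at both ends. The log2 fold changes were 0.03 ± 0.07 for Sh3gl1, -0.03 ± 0.07 for Sh3glb1 and -0.07 ± 0.06 for Sh3glb2. Annotated exons of Sh3gl1 share 41 bases with Mpnd, over which unstranded reads cannot be assigned. Sh3gl3 split the littermates: KOWT replicates 4, 5 and 6 had 15.1, 12.6 and 12.4 CPM and the other 4 lay between 60.8 and 68.1 CPM, while WT-DKO ranged from 40.1 to 62.1 CPM. No WT-DKO library lay near the low level.

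**Figure D1:**
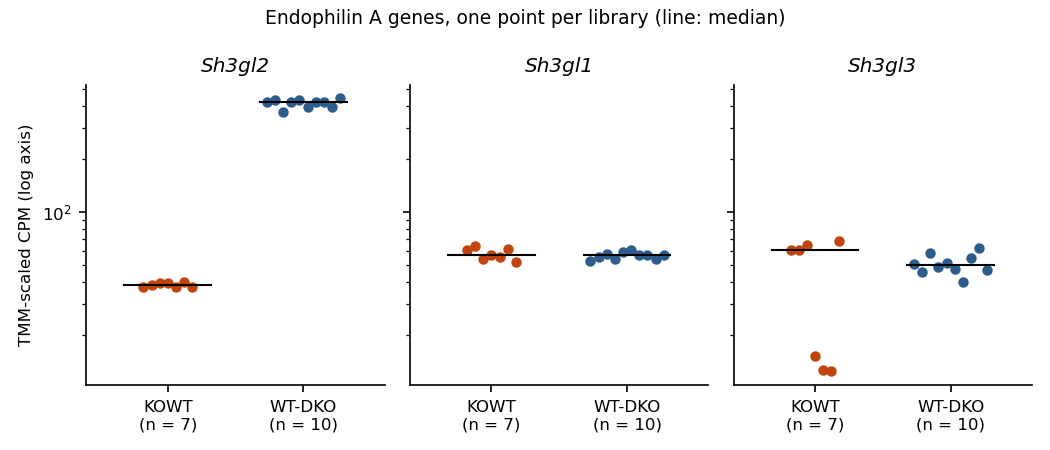
CPM of the 3 endophilin A genes on a log axis, 1 point per library and the median as a line, KOWT (n = 7) left of WT-DKO (n = 10). Sh3gl2 lies between 37.2 and 40.0 CPM in KOWT and between 372 and 446 CPM in WT-DKO, Sh3gl1 overlaps in most of its range, and 3 KOWT libraries are low in Sh3gl3.

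In the pathway in which endophilin works, the share of listed endocytosis genes called, 2.44%, was near the 4.41% of all genes. Lists as short as these would hold few calls at that share. Of 41 clathrin-mediated endocytosis genes, 0 were called higher and 1 lower in KOWT, with a median log2 fold change of -0.01, beside 4.41% of all 16114 genes called and a median of -0.001. The 12 coat genes, 7 fission genes (the dynamins and their partners) and 17 nucleation and scaffold genes held no call, and their log2 fold changes ran from -0.18 to 0.14. None of 27 synaptic vesicle genes was called, with a median of -0.02 and values between -0.26 and 0.10; 1 was called with the mean of the myelin list as a covariate. Rab3b, a vesicle GTPase outside this list, was called lower and is described with the genes of chromosome 4.

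The called endocytosis gene was Hspa8, which encodes Hsc70, the chaperone that drives clathrin off coated vesicles. It stood at 201, 72.4, 178, 69.8, 187, 77.1 and 186 CPM in KOWT replicates 1 to 7, against 278 to 352 CPM with a median of 296 in WT-DKO. KOWT libraries thus formed a low set of 3 and a middle set of 4, both below the lowest WT-DKO library. The log2 fold change was -1.11 ± 0.26 (edgeR quasi-likelihood adjusted p = 0.0159), and in DKO it was -1.44 against the same wild types. The call ended without KOWT replicates 4, 5 and 6 (-0.91). Hspa8 has small nucleolar RNAs within its exons' span and many near-identical copies in the genome, so that its level depends on how reads were assigned.

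In all, 711 of 16114 genes (4.41%) were called, 375 higher in KOWT (2.33%) and 336 lower (2.09%). Most differences were small: 427 were under 1.5-fold and 148 at least 2-fold, of which 101 were higher and 47 lower in KOWT. The 7 KOWT and 10 WT-DKO libraries did not overlap for 164 genes (1.02%), 155 of them called. Leaving out KOWT replicate 3 lowered the number of calls to 470.

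The calls were not spread evenly over the genome. Among genes within 5 Mb of the middle of Sh3gl2, leaving Sh3gl2 itself out, 10 of 29 (34.5%) were called. The share was 13 of 41 (31.7%) within 10 Mb and 26 of 95 (27.4%) within 20 Mb, 8.06% (73 of 906) over the rest of chromosome 4 and 4.05% (606 of 14948) on all other chromosomes. Of these 26 genes, 12 were higher and 14 lower in KOWT, so the neighbourhood had no common direction. Without KOWT replicates 4, 5 and 6 and WT-DKO replicates 3 and 4, 16 were called within 20 Mb. These shares are counts, with no test, since neighbouring genes are not independent.

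**Figure D2:**
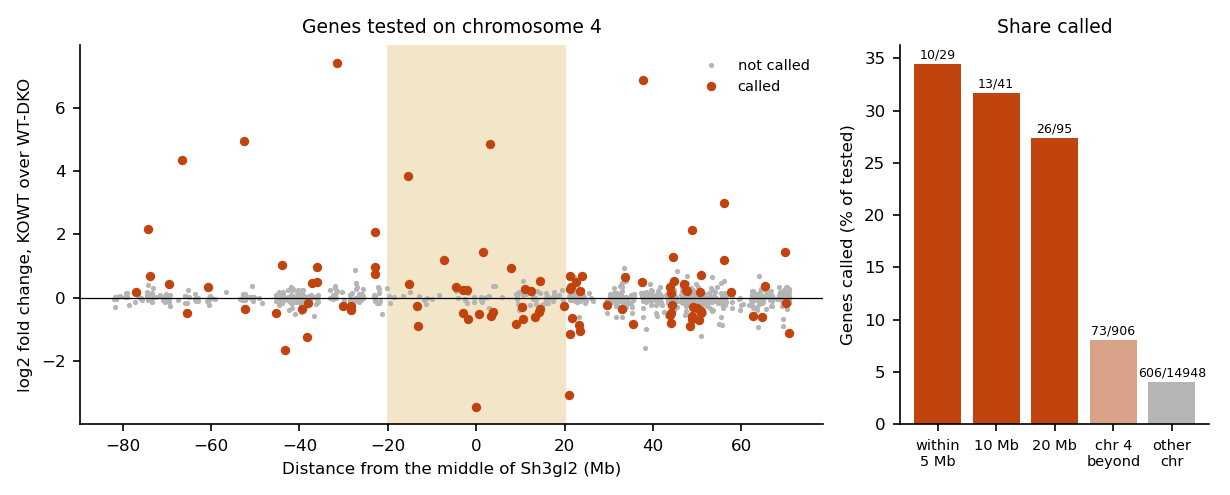
Left, log2 fold change of KOWT over WT-DKO for each gene tested on chromosome 4 against distance from the middle of Sh3gl2 in Mb, called genes in orange and the 20 Mb on either side shaded. Right, percent of tested genes called by region, with counts above the bars, from 34.5% within 5 Mb to 4.05% on other chromosomes.

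In windows of 10 Mb holding at least 20 tested genes, the median share called was 3.39% over 233 windows, and 34 windows held none. The highest were the windows from 80 to 90 Mb (11 of 30 genes, Sh3gl2 included) and from 90 to 100 Mb (10 of 30) of chromosome 4. After these came 130 to 140 Mb of chromosome 3 (10 of 47), 30 to 40 Mb of chromosome 15 (10 of 48) and the first 10 Mb of chromosome 17 (8 of 39). Chromosome 4 as a whole had 100 of 1002 genes called (9.98%), and chromosome 10 had 13 of 763 (1.70%). Without overlap between the groups' libraries there were 40 genes on chromosome 4 and 122 on all other named chromosomes, 3.90% of chromosome 4 without Sh3gl2 and 0.816% elsewhere.

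Of the 5 nearest tested genes on each side of Sh3gl2, 3 were called. On one side, Snapc3, a subunit of the complex that starts small nuclear RNA transcription, ranged from 28.7 to 34.6 CPM in KOWT (median 30.1) and from 24.4 to 28.5 CPM in WT-DKO (median 26.9), without overlap (log2 fold change 0.25 ± 0.05, adjusted p = 0.0051), though 483 exon bases are shared with Psip1 and the call ended without the libraries rich in Ttr (0.21). Ccdc171, a coiled-coil protein gene, ranged from 1.38 to 2.75 CPM in KOWT and from 2.46 to 4.51 CPM in WT-DKO (-0.68 ± 0.14), and its call ended without KOWT replicates 4 to 6 (-0.59). On the other side Adamtsl1, a secreted matrix protein gene whose span overlaps that of Sh3gl2 without shared exons, ranged from 4.63 to 9.65 CPM in KOWT and from 8.28 to 12 CPM in WT-DKO. Its log2 fold change was -0.52 ± 0.14, and the call ended without KOWT replicate 3 (-0.45) or 6 (-0.48). Psip1, Cntln, Gm12419, Rraga, Haus6, Plin2 and Dennd4c were not called, with log2 fold changes from -0.15 to 0.16. Psip1 was called with only KOWT and WT-DKO in the fit.

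Farther out, the libraries of Acer2, Klhl9 and Tusc1 did not overlap between the groups. Acer2, an alkaline ceramidase of the Golgi, ranged from 7.26 to 13.1 CPM in KOWT (median 11.2) and from 2.49 to 5.49 CPM in WT-DKO (median 3.55), 1.5 Mb from Sh3gl2 (1.44 ± 0.16). Klhl9, a substrate adaptor of a Cullin 3 ubiquitin ligase 3.3 Mb away, ranged from 82.6 to 93.8 CPM in KOWT (median 87.6) and from 116 to 142 CPM in WT-DKO (median 129), with a log2 fold change of -0.57 ± 0.06. Its exons share 661 bases with Gm26566. Tusc1, a candidate tumour suppressor gene 7.9 Mb away, ranged from 5.46 to 7.96 CPM in KOWT (median 7.06) and from 2.88 to 4.29 CPM in WT-DKO (median 3.56), a log2 fold change of 0.95 ± 0.09. Each of these genes stood in KOWT wholly on one side of WT-DKO.

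The day 0 libraries allow the same regions to be read in other mice, which were low in Sh3gl2 and also lacked Sh3gl3 transcript. There 3288 of 15715 genes (20.9%) were called in KOWTKO versus WT-TKO in either direction, 1645 higher and 1643 lower. Of the 711 older calls, 656 were tested at day 0 and 148 were called in the same direction, 53 higher and 95 lower, which is 22.6% of the older calls tested and 4.50% of the day 0 calls, while 52 were called in the opposite direction. On chromosome 4, without Sh3gl2, 30 of 92 older calls (32.6%) recurred, and 15 of 26 (57.7%) did so within 20 Mb of Sh3gl2. On the other chromosomes 117 of 558 (21.0%) recurred. Regardless of the older calls, and without Sh3gl2, 29 of 91 genes tested within 20 Mb were called at day 0 in either direction. The same count was 2997 of 14103 on the other chromosomes. These shares were not tested against each other.

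Of the 10 genes called the same way at both ages whose larger p of the pair was smallest, 9 lay on chromosome 4, Sh3gl2 among them. Col15a1, a basement membrane collagen, ranged from 4.66 to 7.33 CPM in KOWT (median 6.26) and from 10.7 to 16.6 CPM in WT-DKO (median 14.8), and its log2 fold change was -1.24 ± 0.15 at day 13 to 21 and -1.56 ± 0.15 at day 0. Rab3b, a synaptic vesicle GTPase, ranged from 20.6 to 43.7 CPM in KOWT and from 53.1 to 88.7 CPM in WT-DKO (-1.03 ± 0.15, and -0.75 ± 0.09 at day 0). Scp2, a sterol carrier protein of peroxisomes, ranged from 45.0 to 60.0 CPM in KOWT and from 34.6 to 44.7 CPM in WT-DKO (0.48 ± 0.05, and 0.60 ± 0.08 at day 0). In these 3 genes no KOWT library reached into the WT-DKO range.

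Tceanc2 (a log2 fold change of -0.65 at day 13 to 21 and -0.50 at day 0), Klhl32 (0.34 and 0.52), 9530080O11Rik (-0.68 and -0.83) and Tusc1 (0.95 and 0.76) also lay on chromosome 4. Exons of Tceanc2, Klhl32, Rab3b, 9530080O11Rik and Col15a1 overlap those of other genes, which leaves their levels uncertain to that extent. Gsap, a gene on chromosome 5 known for its link to gamma-secretase, was at 4.42 to 6.96 CPM in KOWT and 8.59 to 10.8 CPM in WT-DKO (-0.90 ± 0.09, and -0.54 ± 0.09 at day 0).

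**Figure D3:**
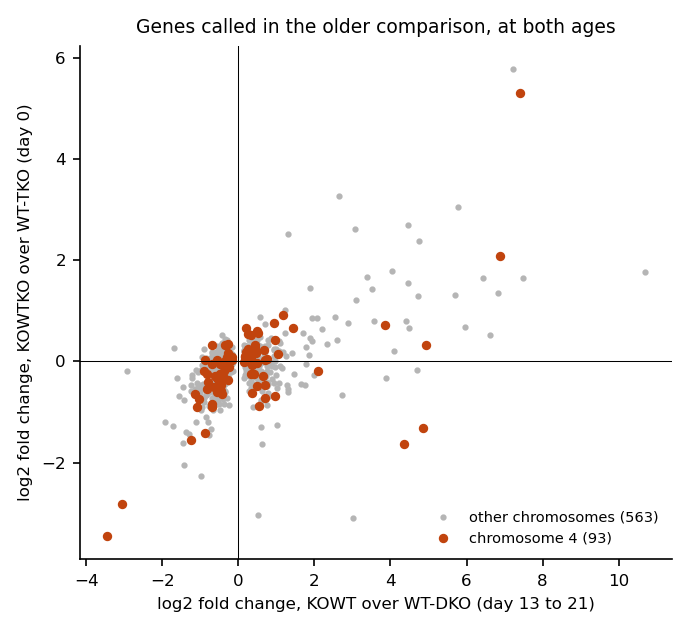
Log2 fold change at day 0 (KOWTKO over WT-TKO) against that at day 13 to 21 (KOWT over WT-DKO) for the 656 older calls tested at both ages, 93 on chromosome 4 in orange and 563 others in grey. Of the older calls, 148 were called in the same direction at day 0 and 52 in the opposite one.

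Genes off chromosome 4 also differed without overlap. Wdfy1, an endosomal adaptor that binds phosphatidylinositol 3-phosphate, on chromosome 1, was at 67.0 to 83.7 CPM in KOWT (median 72.0) and 18.6 to 21.4 CPM in WT-DKO (median 19.98), a log2 fold change of 1.89 ± 0.06 (adjusted p = 7.69e-19). In DKO it was 1.92 against the same wild types, and at day 0 it was 0.45 ± 0.29, not called. Ide, the insulin-degrading enzyme, on chromosome 19, was at 58.1 to 69.6 CPM in KOWT and 74.4 to 144 CPM in WT-DKO (-0.91 ± 0.10), and WT-DKO replicate 5 alone was under 100 CPM. Kcns1, a modulatory potassium channel subunit, was at 3.08 to 7.18 CPM in KOWT and 7.69 to 12.3 CPM in WT-DKO (-1.21 ± 0.16).

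Stbd1, which tethers glycogen to membranes, was at 6.21 to 13.2 CPM in KOWT (median 8.60) and 1.12 to 5.77 CPM in WT-DKO (median 1.89), with no overlap (1.99 ± 0.36). Its call ended without KOWT replicates 4 to 6 and WT-DKO replicates 3 and 4 (1.49). Against the same wild types DKO gave a log2 fold change of 0.20, not called (adjusted p = 0.75). Iyd, the deiodinase that recycles iodide and one of 14 CA2 and CA3 markers, was at 0.917 to 1.42 CPM in 5 KOWT libraries while replicates 4 and 6 had 4.52 and 4.24 CPM, against 5.12 to 10.7 CPM in WT-DKO (-1.92 ± 0.29). All 7 KOWT libraries were below the lowest wild type. Eps8l1, of a family of actin regulators, was at 1.91 to 4.81 CPM in KOWT and 4.52 to 11.8 CPM in WT-DKO (-1.56 ± 0.17).

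Pseudogenes were called more often than other classes: 42 of 258 (16.3%), 40 of them higher in KOWT, beside 616 of 14593 protein-coding genes (4.22%) and 48 of 1099 other non-coding genes (4.37%). Their reads can come from a near-identical parent gene or copy, so each level is uncertain. Gm11223, a processed pseudogene on chromosome 4, 15.5 Mb from Sh3gl2, was at 10.9 to 22.3 CPM in KOWT (median 13.9) and 0.918 to 1.30 CPM in WT-DKO (median 1.18). BC002163, on chromosome 16, was at 9.21 to 21.0 CPM in KOWT, against 0.421 to 0.852 CPM in 9 WT-DKO libraries and 11.0 CPM in WT-DKO replicate 3. One wild-type library thus carried the littermate level.

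Gm26825, Gm12901 and Gm4737 held almost no reads in the wild types. The first, a long non-coding RNA on chromosome 5, held 5109 reads over the KOWT libraries, at 16.97 to 54.7 CPM, and 3 reads over the WT-DKO libraries. The processed pseudogene Gm12901 held 349 reads in KOWT and 3 in WT-DKO, and Gm4737, on chromosome 16, 261 reads in KOWT and 3 in WT-DKO. The groups did not overlap in any of these, and a fold is not given since it would rest on 3 reads.

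Serpina3n, a secreted protease inhibitor and common marker of reactive astrocytes, was at 79.5 to 290 CPM in KOWT (median 239) and 36.0 to 136 CPM in WT-DKO (median 43.6), with a log2 fold change of 2.08 ± 0.33 (adjusted p = 0.000523). KOWT replicate 4, at 79.5 CPM, was below WT-DKO replicate 4, at 136 CPM, and these were the only libraries that crossed. The neighbouring Serpina3m was crossed by the same pair, at 0.0348 CPM in KOWT replicate 4 and 6.50 to 11.5 CPM in the other KOWT libraries, against 3.41 CPM in WT-DKO replicate 4 and at most 0.131 CPM in the other WT-DKO libraries. The Serpina3 genes are a cluster of near-identical copies on chromosome 12, and reads may be shared among them. Of 20 reactive astrocyte genes tested, 2 were called higher (Serpina3n and Fkbp5) and 2 lower (Psmb8 and Iigp1), with a median of 0.00. This is 20%, beside 4.41% of all genes, but Fkbp5 is also in the glucocorticoid list below, and Psmb8 and Iigp1 are in the interferon list. The number called fell to 2 without KOWT replicate 6, without KOWT replicates 4 to 6, or without the libraries rich in Ttr.

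Several genes took separate levels within the KOWT group, and within the DKO group too. A rule chosen after the levels were seen asked for a gap of at least 1 on the log2 scale between neighbouring libraries, no narrower than the range on either side, with at least 2 libraries a side. Of 12103 genes whose log2 CPM averaged 2 or more, 41 met it in KOWT, 44 in DKO and 30 in WT-DKO. The outcome of the rule depends on group size (7, 7 and 10 libraries), so counts of KOWT and WT-DKO cannot be compared directly. Xist and 4 genes of the Y chromosome, which follow sex, made 5 of the genes in KOWT and 5 in WT-DKO. Genes of the choroid plexus list or high in just the libraries rich in Ttr made another 12 in KOWT and 19 in WT-DKO. That left 24 genes in KOWT and 6 in WT-DKO, and 8 of the 24 were called between the groups. The 24 can still hold genes that follow Ttr or sex. Sulf1 and Cldn1 were high in KOWT replicates 5 and 7 alone, the richest in Ttr. Gm42418, among the 8, was high in KOWT replicates 3 and 7 alone, which were female and also rich in Ttr.

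The libraries on the low side often coincided. KOWT replicates 4, 5 and 6 were low in Sh3gl3 and in 4 more genes. Hddc3, a nucleotide hydrolase gene 1.89 Mb from Sh3gl3 on chromosome 7, was at 8.65 to 9.84 CPM in these 3 and at 30.8 to 36.7 CPM in the other 4 KOWT libraries, against 8.21 to 10.4 CPM in WT-DKO. The pseudogene Gm6166 was at 0.452 to 0.823 CPM in the 3 and 9.53 to 22.3 CPM in the 4, against 0.548 to 1.57 CPM in WT-DKO. For both, the 3 libraries stood at the wild-type level.

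Tdg, a DNA repair glycosylase, and Ccl28, a chemokine, ran the other way. Tdg was at 1.57 to 1.98 CPM in KOWT replicates 4 to 6 and 6.53 to 7.98 CPM in the other 4 KOWT libraries, against 7.29 to 10 CPM in WT-DKO. Ccl28 was at 0.272 to 0.696 CPM and 7.48 to 15.8 CPM in the same sets of KOWT libraries, against 3.09 to 9 CPM in WT-DKO. The 3 libraries were below every wild type in both genes. In Ccl28, 3 of the other 4 were above every wild type (10.1, 15.8 and 10.1 CPM), and neither gene was called between the groups. Of the DKO libraries, replicates 5 and 6 were the low ones in Sh3gl3, Hddc3, Gm6166, Tdg and Ccl28. They had 6.46 and 6.31 CPM of Sh3gl3, and the other 5 DKO libraries 55.1 to 69 CPM. Hspa8 was low in DKO replicates 2, 3 and 6 (55.8 to 62.5 CPM) and at 137 to 163 CPM in the other 4.

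Another set was low in KOWT replicates 2, 4 and 6: Hspa8, above, and Mpeg1, a pore-forming protein of macrophages and microglia. Mpeg1 was at 7.38 to 8.87 CPM in these 3 and 18.6 to 26.5 CPM in the other 4 KOWT libraries, against 27.7 to 35.5 CPM in WT-DKO (-0.93 ± 0.21, adjusted p = 0.00995). 4833420G17Rik, on chromosome 13 and 0.16 Mb from Ccl28, had 25.5 to 27.8 CPM in KOWT replicates 1 and 2 and 8.31 to 10.8 CPM in the other 5, against 35.8 to 45.3 CPM in WT-DKO. At day 0 its log2 fold change was -2.05 ± 0.11, beside -1.43 ± 0.29 at day 13 to 21, and 524 of its exon bases are shared with Gm9752. The older call ended without KOWT replicates 4 to 6 (-1.09). Atg4b, the protease that processes autophagy proteins of the LC3 family, was called higher in KOWT (0.70 ± 0.16) with 126 to 159 CPM in 5 libraries, while replicates 5 and 6 had 81.2 and 80.9 CPM, against 76.4 to 83.7 CPM in WT-DKO. Without the libraries rich in Ttr it was not called (0.70).

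**Figure D4:**
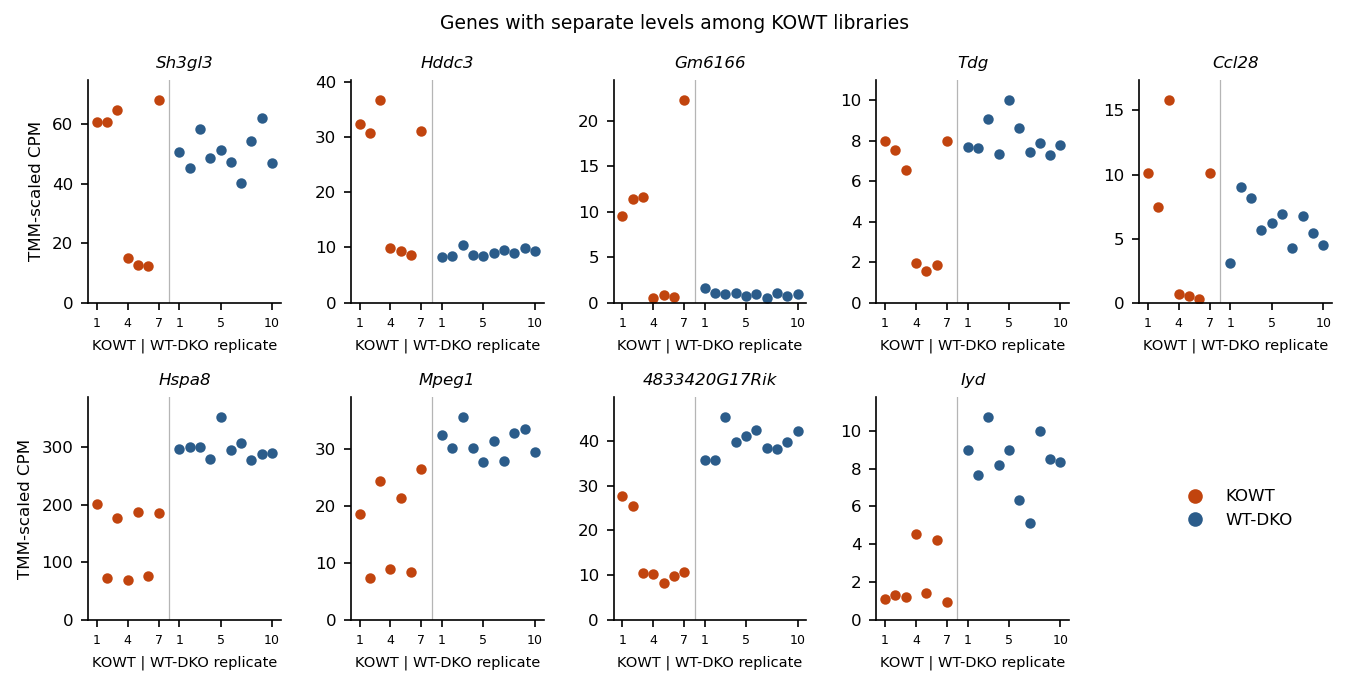
CPM by library for 9 genes whose KOWT libraries (replicates 1 to 7, orange, left) fall at separate levels, beside WT-DKO (replicates 1 to 10, blue, right); axes start at 0. Replicates 4, 5 and 6 are low together in Sh3gl3, Hddc3, Gm6166, Tdg and Ccl28, and replicates 2, 4 and 6 in Hspa8 and Mpeg1.

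Genes induced by glucocorticoids, the adrenal stress hormones that act through the nuclear receptor Nr3c1, were higher in KOWT. This list, wider than those used before on these data and overlapping with them, held 28 targets, of which 16 were called higher and 0 lower. Each of the 28 had a log2 fold change above 0, with a median of 0.50, beside 2.33% of all genes called higher. The receptor genes and the activating enzyme, Nr3c1, Nr3c2 and Hsd11b1, were not called (-0.14, -0.06 and -0.21). Calls fell to 10 without KOWT replicates 4 to 6 and WT-DKO replicates 3 and 4.

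Among the targets, Nfkbia, the inhibitor of NF-kappa B, was at 23.9 to 33.6 CPM in KOWT (median 28.2) and 17.3 to 21.8 CPM in WT-DKO (median 19.2), the only member whose groups did not overlap (0.55 ± 0.09). Over all genes, 1.02% did not overlap. Tsc22d3, a mediator of the hormone's anti-inflammatory action, was at 74.8 to 153 CPM in KOWT and 63.0 to 86.1 CPM in WT-DKO. Plin4, a lipid droplet coat protein, was at 1.27 to 9.77 CPM in KOWT and 0.525 to 1.70 CPM in WT-DKO. For both, KOWT replicate 5 was the lowest littermate and lay within the wild-type range, as did replicate 4 for Tsc22d3.

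Further called members, picked after their values were seen, had other roles. Sgk1, a kinase that controls ion channels, had a log2 fold change of 0.74 ± 0.15, and the metallothioneins Mt1 and Mt2, which bind metals, 0.55 ± 0.16 and 0.94 ± 0.19. Slc2a1, the glucose transporter of the blood-brain barrier, was 0.65 ± 0.14 and Fkbp5, a co-chaperone that dampens the receptor, 0.55 ± 0.11. Not called were Per1 (0.21), Klf9 (0.08), Cdkn1a (0.11) and Dusp1 (0.45), which are also hormone targets.

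The list mean separated most but not all libraries. It was 5.33, 5.33, 5.33, 5.01, 4.73, 5.36 and 4.92 log2 CPM in KOWT replicates 1 to 7, against 4.53 to 4.85 in WT-DKO with a median of 4.69. KOWT replicate 5 lay within the wild types, and replicates 5 and 7, the lowest, were also the richest in Ttr among littermates (3313 and 2644 CPM). Whether choroid plexus tissue has a part in these means was not tested; without the 5 libraries rich in Ttr, 14 members of the list were called. Against the same wild types, 15 of the 31 members were called higher and 2 lower in DKO, beside 26.1% of all genes called in that comparison. In KOWTKO versus WT-TKO at day 0, 20.9% of all genes were called, 10.5% of all genes lower. Of 29 members tested there, 0 were called higher and 4 lower, with a median of -0.01 and no test of the difference between ages.

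Interferon-stimulated genes, the antiviral and antigen-processing genes switched on by interferon, were lower in KOWT. Of 46 members tested, 25 were called lower and 0 higher, with a median of -0.60, beside 2.09% of all genes called lower. Among the 35 targets 22 were called and 34 lay below 0, where the median of all genes was -0.001. In 7 targets KOWT lay wholly below WT-DKO, beside 1.02% of all genes without overlap in either direction. Of the 11 receptors and factors, the transcription factor genes Irf7 and Irf1 were among those called lower (-1.14 ± 0.26 and -0.31 ± 0.09), and the receptor genes Ifnar1, Ifnar2, Ifngr1 and Ifngr2 were not (-0.13 to 0.10). The list overlaps those used before on these data and was chosen with their results known. Calls fell to 12 without KOWT replicates 4 to 6, and to 10 without WT-DKO replicates 3 and 4 as well. In bulk tissue, fewer cells of a type that express these genes and less RNA per cell cannot be told apart.

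Gbp3, a guanylate-binding protein that attacks intracellular pathogens, was at 2.07 to 4.58 CPM in KOWT (median 3.05) and 4.03 to 12.2 CPM in WT-DKO (median 6.37), a log2 fold change of -1.10 ± 0.21 (adjusted p = 0.00189). Irgm1, an immunity-related GTPase of the same defence, was at 5.63 to 7.45 CPM in KOWT (median 6.58) and 8.5 to 19 CPM in WT-DKO (median 9.23), without overlap (-0.68 ± 0.13). Irgm2, its relative, was at 1.91 to 3.09 CPM in KOWT and 3.41 to 7 CPM in WT-DKO, also without overlap (-0.96 ± 0.20), and its exons share 162 bases with Igtp. The call of Irgm2 ended without KOWT replicates 4 to 6 and WT-DKO replicates 3 and 4 (-0.998).

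Promoters of interferon-stimulated genes often carry the interferon-stimulated response element, through which interferon raises their transcription. The core GAAANNGAA, searched on both strands in the 250 bases before the start, was in 16 of the 36 tested members found in the RefSeq promoter table (44.4%) and in 7.35% of the 12063 tested genes in that table, or 7.13% of its 32851 promoters. A match is a description of letters and not a bound site. The 3 windows that follow belong to the 3 called members with the smallest p, each with the core in a window (for Gbp3 in 1 of its 2), and were taken from RefSeq on GRCm38.p6, 5′ to 3′ on the strand of the gene, with matches in capitals. They lie at chr3:142559794-142560043 (plus strand) for Gbp3, chr11:48871421-48871670 (minus strand) for Irgm1 and chr11:58214727-58214976 (plus strand) for Irgm2.
Gbp3: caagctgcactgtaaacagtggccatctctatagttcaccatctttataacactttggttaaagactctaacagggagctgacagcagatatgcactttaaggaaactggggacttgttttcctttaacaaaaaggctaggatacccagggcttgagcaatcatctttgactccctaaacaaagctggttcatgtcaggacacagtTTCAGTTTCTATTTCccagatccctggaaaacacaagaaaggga
Irgm1: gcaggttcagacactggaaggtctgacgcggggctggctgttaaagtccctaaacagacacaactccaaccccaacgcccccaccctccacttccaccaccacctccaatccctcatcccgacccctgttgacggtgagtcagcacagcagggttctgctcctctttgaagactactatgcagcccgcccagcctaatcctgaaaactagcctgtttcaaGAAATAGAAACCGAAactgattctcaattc
Irgm2: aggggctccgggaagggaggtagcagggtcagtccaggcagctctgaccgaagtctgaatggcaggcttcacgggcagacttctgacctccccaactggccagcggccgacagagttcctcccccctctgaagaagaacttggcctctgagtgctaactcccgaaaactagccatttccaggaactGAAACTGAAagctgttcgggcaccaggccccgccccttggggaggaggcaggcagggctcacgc
In each, the match starts within 64 bases of the start of transcription, at 64 bases in Irgm2, and Gbp3 and Irgm1 carry 2 overlapping matches. In the glucocorticoid list, the palindrome ACANNNTGT was in 4 of 26 members in the table (15.4%) and in 4.68% of tested genes. Of the 13 called members in the table, 2 held it, Mt1 and Sgk1. It was in none of the windows of Nfkbia, Tsc22d3, Plin4 and Fkbp5, the members considered for printing, so no sequence is shown for it.

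The lowest members, picked after their values were seen, were Rsad2, whose product viperin blocks viral replication (-1.73 ± 0.36), and Oasl2 of the oligoadenylate synthetase family (-1.43 ± 0.30). Rsad2 was at 0.356 to 0.898 CPM in KOWT and 0.974 to 4.86 CPM in WT-DKO, with no overlap. Isg15, a ubiquitin-like modifier, was at 0.764 to 1.5 CPM in KOWT and 1.51 to 4.79 CPM in WT-DKO (-1.10 ± 0.24). The spread was wider in the wild types than in the littermates for these genes.

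The interferon list mean was 1.84 to 2.21 log2 CPM in KOWT (median 2.00) and 2.28 to 3.23 in WT-DKO (median 2.52). WT-DKO replicates 1 and 2 were the highest, at 3.01 and 3.23, but no KOWT library reached the lowest wild type. Without the libraries rich in Ttr, 15 members were called. In DKO versus the same wild types 25 of 46 members were called lower and 0 higher, beside 13% of all genes called lower in that comparison. At day 0, in other libraries, 23 of 41 were called lower and 1 higher in KOWTKO versus WT-TKO, with a median of -0.62, beside 10.5% of all genes called lower there.

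**Figure D5:**
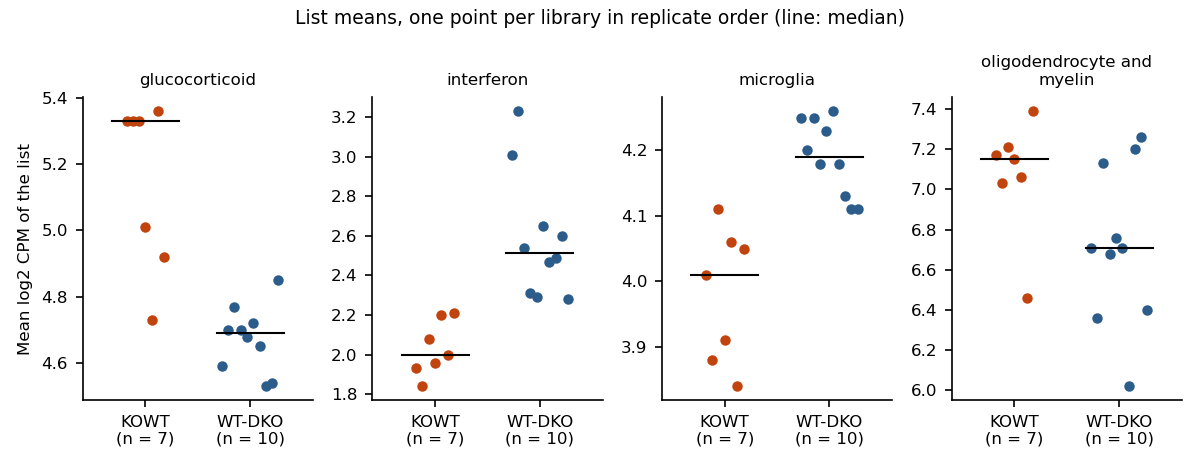
Mean log2 CPM of 4 gene lists, 1 point per library in replicate order and the median as a line, KOWT (n = 7) left of WT-DKO (n = 10); each panel has its own axis. The interferon means do not overlap (1.84 to 2.21 in KOWT, 2.28 to 3.23 in WT-DKO), the glucocorticoid means cross at KOWT replicate 5, the microglia means meet near 4.11, and the myelin means overlap.

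Major histocompatibility complex class I genes, which present peptides and respond to interferon, lay below 0 in all 7 tested. Of these, 3 were called lower and none higher, beside 2.09% of all genes called lower: B2m, the shared light chain (-0.51 ± 0.12), H2-M3 (-0.57 ± 0.15) and H2-Q4 (-1.24 ± 0.33). B2m was at 38.5 to 60.4 CPM in KOWT and 56.1 to 109 CPM in WT-DKO. H2-Q4 has near-identical relatives and is high in WT-DKO replicate 7 (7.67 CPM), without which its log2 fold change was -0.785 and still called. Its call ended in 10 settings, among them those without KOWT replicate 1, 2, 3 or 4 (-1.41 to -0.93 over the 10). The call of H2-M3 ended without KOWT replicate 3, 4 or 6 or WT-DKO replicate 1 and in 4 other settings (-0.63 to -0.50 over the 8), and 1 gene of the list was called in the least favourable setting. At day 0, 6 of the 7 were called lower, beside the same 10.5%.

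Of 26 microglia markers, 4 were called lower and none higher (Itgam, Cx3cr1, P2ry13 and Fcer1g), with a median of -0.25, beside 2.09% of all genes called lower. Cx3cr1, the fractalkine receptor by which microglia sense neurons, was at 40.4 to 51.4 CPM in KOWT (median 46.2) and 54.2 to 66.8 CPM in WT-DKO (median 57.2), without overlap (-0.34 ± 0.08). Itgam, the integrin CD11b, was at 13.9 to 21.6 CPM in KOWT and 21.4 to 30.4 CPM in WT-DKO (-0.47 ± 0.11), with a narrow overlap, and its call ended without KOWT replicates 4 to 6 (-0.44). The call of P2ry13, a purine receptor (-0.49 ± 0.14), ended in 14 of the 17 fits that left out 1 library and in 19 settings in all (-0.56 to -0.45). The list mean was 3.84 to 4.11 log2 CPM in KOWT and 4.11 to 4.26 in WT-DKO, so it was lower together with the interferon list, and its part in the interferon values was not tested. The number called was 0 without KOWT replicates 4 to 6 and WT-DKO replicates 3 and 4, and 10 with only the 2 groups in the fit. At day 0, 17 of 26 were called lower, beside the 10.5% of all genes.

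Among markers of hippocampal neurons, 3 of 14 dentate gyrus genes (21.4%), 2 of 14 of CA2 and CA3 (14.3%) and 1 of 9 of CA1 (11.1%) were called, beside 4.41% of all genes. In the dentate gyrus all 3 were called higher: Calb1, a calcium buffer of mature granule cells, at 152 to 209 CPM in KOWT (median 170) and 116 to 160 CPM in WT-DKO (median 131; 0.42 ± 0.07), Pter (0.29 ± 0.08) and C1ql3 (0.28 ± 0.08). The calls of Pter and C1ql3 ended in 9 and 12 of the 17 fits that left out 1 library (0.24 to 0.32 and 0.23 to 0.31 over all settings in which a call ended). Of the CA markers, Spink8 was called higher in KOWT (0.42 ± 0.11) and Iyd (-1.92 ± 0.29, all KOWT libraries below the wild types) and Prss35 (-0.48 ± 0.12) lower, the calls of Spink8 ending without KOWT replicate 3 (0.35) or 6 (0.40) and those of Prss35 without KOWT replicate 3 (-0.39) or 4 (-0.42). None of 19 interneuron, 16 cortical, striatal and thalamic or 20 choroid plexus genes was called.

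Myelin genes, made by oligodendrocytes as axons are wrapped during these weeks, held no call among 24, yet each of the 24 was above 0, with a median of 0.31. The list mean was 6.46 to 7.39 log2 CPM in KOWT and 6.02 to 7.26 in WT-DKO, with medians of 7.15 in KOWT and 6.71 in WT-DKO, and the ranges overlapped between 6.46 and 7.26. With a label that covers day 13 to 21, the age of a library and its group cannot be told apart here. Proliferation and neurogenesis genes had no call among 20, beside the same 4.41%, with a median of -0.29 and 19 of 20 below 0.

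Of 7 red cell transcripts, 3 were called lower in KOWT and none higher, beside 2.09% of all genes called lower, with a median of -1.18 and 2 of the 7 above 0. Hbb-bt, a beta globin, was at 1.72 to 8.56 CPM in KOWT (median 4.90) and 9.07 to 24.3 CPM in WT-DKO (median 12.2), without overlap (-1.61 ± 0.40). Its call ended without KOWT replicate 3 (-1.48) or 4 (-1.50). Hba-a1 and Alas2, the first enzyme of heme synthesis in red cells, were -1.24 ± 0.35 and -1.22 ± 0.35, and 0 of the 7 were called without KOWT replicate 3. Of 21 endothelial and mural genes 1 was called (4.76%), near the 4.41% of all genes. It was Kdr, the vessel receptor gene for vascular endothelial growth factor (-0.62 ± 0.13). Its level was 18.9 to 30.8 CPM in KOWT and 23.96 to 52.2 CPM in WT-DKO. The call of Kdr ended without the libraries rich in Ttr (-0.59).

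The share called among activity-regulated genes was near that of all genes, 2 of 34 (5.88%) beside 4.41%. Fosb, a transcription factor subunit induced by firing, and Sik1, a kinase induced by cyclic AMP, were called higher in KOWT, and none lower. Fosb was at 7.28, 3.61, 17.7, 7.79, 2.62, 4.41 and 10.2 CPM in KOWT replicates 1 to 7 and at 2.24 to 4.97 CPM in WT-DKO (1.14 ± 0.30). Its call ended without KOWT replicate 3 (0.80) or 7 (1.06), and in 6 other settings. Sik1 (0.45 ± 0.12) lost its call in 8 of the fits that left out 1 library (0.31 to 0.45 over all settings in which it ended).

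Autophagy and the FoxO and ubiquitin ligase axis have been linked to endophilin. The share called was 3.57% in the autophagy list and 10% in the FoxO and ubiquitin ligase list, beside 4.41% of all genes. Of 28 autophagy genes only Atg4b was called, with a median of 0.02. Of 20 FoxO and ubiquitin ligase genes, Trim63, a muscle atrophy ligase, was called higher at a very low level, 0.255 to 0.637 CPM in KOWT and 0.0443 to 0.172 CPM in WT-DKO (2.15 ± 0.31), resting on 70 KOWT and 23 WT-DKO reads. Foxo4 was 0.22 ± 0.06 higher, and its call ended in 12 of the fits that left out 1 library. Of 22 cholesterol synthesis and uptake genes 1 was called (4.55%), near the 4.41% of all genes. It was Insig1, which holds back sterol synthesis, at 35.2 to 43.7 CPM in KOWT and 46.5 to 53.0 CPM in WT-DKO. The groups did not overlap (-0.35 ± 0.08). The call of Insig1 ended without KOWT replicates 4 to 6, with or without WT-DKO replicates 3 and 4 (-0.36 to -0.35).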

How the data were processed

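Polyadenylated RNA of mouse hippocampus was sequenced, with TruSeq RNA Sample Preparation v2, per the labels' protocols, a kit that does not mark strand. The submitters' processing notes name CASAVA 1.8.2, STAR 2.3.0e, DESeq2 and the build mm10. Which counter and annotation they used is not given in the sources used here. Whole-number read counts per gene were deposited by the authors for all samples. Reads assigned to no gene (11.8 to 17.5% in KOWT, 12.1 to 13.5% in WT-DKO) stayed out of library sizes. The authors' tables of differential expression were not used here.

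Of 38355 genes, 36602 matched GENCODE M21 by Ensembl identifier, which gave symbols and mm10 positions. Counts of the 24 older libraries were fitted with edgeR 4.0.16 (R 4.3.3; filterByExpr, TMM, robust quasi-likelihood), contrasts KOWT minus WT-DKO and DKO minus WT-DKO, and the day 0 libraries in a second fit. A gene was called at a Benjamini-Hochberg adjusted p under 0.05 over all genes. Errors are SE of the log2 fold change. CPM are TMM-scaled. DESeq2 1.42.0 and limma 3.58.1 were alternatives. On simulated counts of 16007 genes for KOWT versus WT-DKO, 73 of 100 changes of 1.5-fold and 94 of 100 of 2-fold were found, and false calls made 4.02%. The simulated libraries were drawn independently, without the sets of libraries seen within KOWT. The 4.02% is therefore not an error rate for the calls in the real data. No pair of libraries agreed within sampling noise.

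The groups compared, gene lists and alternatives were chosen with earlier results of these data known. Named genes were the endophilins, among calls averaging 2 log2 CPM or more the 10 of largest increase and the 10 of largest decrease, the 8 of each direction with the smallest p among genes whose libraries did not overlap, the 3 called members of each list with the smallest p, the 5 neighbours on each side of Sh3gl2 and the 10 strongest shared with day 0. Not all of them are described. Genes at separate levels and some list members were picked after their values were seen. The table of protein sequences was not used here.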

Additional observations from a re-analysis of the deposited data

Results flagged for a closer look

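In 15 of 156 groups of libraries examined, 1 library lay farther from the rest than Dixon's criterion allows. For normally distributed values, chance alone flags about 1 group in 20. Here the criterion was applied to CPM without a log transform, in genes partly picked for their values. The 15 can therefore not be read as an excess over that rate. WT-DKO replicate 4 was high in Serpina3n (136 CPM), Serpina3m (3.41 CPM), Sox9 (29.3 CPM) and Rraga (136 CPM), and KOWT replicate 4 was low in Serpina3n (79.5 CPM). WT-DKO replicate 3 was high in BC002163 (11.0 CPM), and WT-DKO replicate 5 in Hspa8 (352 CPM) and Cx3cr1 (66.8 CPM). WT-DKO replicates 6, 2 and 7 were high in Hba-a1 (19.1 CPM), Irgm1 (19 CPM) and H2-Q4 (7.67 CPM). KOWT replicate 5 was high in P2ry13 (14.4 CPM) and KOWT replicate 1 in Gm12419 (1.09 CPM). Haus6 was high in KOWT replicate 7 (11.8 CPM) and low in WT-DKO replicate 2 (8.55 CPM).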

How the results depend on the processing

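The 711 calls (375 higher and 336 lower in KOWT) became 466 without KOWT replicates 4, 5 and 6, which were low in Sh3gl3 (269 higher, 197 lower), and 373 without these and WT-DKO replicates 3 and 4 (230 higher, 143 lower). Leaving out 1 library gave 470 to 811 calls, 254 to 439 higher and 216 to 372 lower; without KOWT replicate 3 there were 470. The samples of a number did not deviate together (r of -0.28 to 0.13, and 0 of 7 KOWT libraries correlated best with their own number). These correlations cannot settle whether such samples share a litter or a preparation, which no label states. With the replicate block over replicates 1 to 7, 516 genes were called, 245 higher and 271 lower, and 13 interferon members in place of 25. Other settings gave 557 to 1002 calls, the highest by DESeq2, and every call shared with the 711 kept its direction. Upper-quartile scaling gave 316 higher and 398 lower. Sex, read from Xist, as a covariate gave 637, and leaving out the libraries rich in Ttr 586; both were added after the data were seen. Of 68 named genes called, 36 kept the call in all settings that gave a value and 32 lost it in at least 1. Genes under about 1 CPM rest on few reads.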
